A study of Homo sapiens with 5 samples.

Results

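Gene expression in HEK 293T cells kept for 30 days without 5-aza-2'-deoxycytidine was compared with that in cells collected at the end of 3 days in the drug. The comparison took every gene entry whose larger value in these 2 groups was 1 FPKM or more, and no control value entered it. FPKM is the number of fragments scaled to transcript length and to the sequencing depth of the library. That rule kept 12486 of 20220 RefSeq gene entries and, in a separate table, 2845 of 10010 long noncoding RNA (lncRNA) loci. The 2 groups hold 3 of the 5 libraries of the series.

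HEK 293T is an established line derived from human embryonic kidney that expresses the large T antigen of SV40. The treated group is 2 libraries from cells given 1.0 µM of the drug for 3 days with fresh medium daily, and the recovery group is 1 library from such cells after 30 further days of culture without it. The control group, 2 libraries from cells that were never given the drug, is named below only as a level beside some genes. All groups are the same line in the same medium, grown in triplicate. Ribosomal RNA was removed, and cDNA was primed with both oligo-dT and random hexamers in a protocol that keeps the strand. The authors deposited 1 FPKM value per gene and group, so the treated replicates are already combined. The labels do not say which culture each library came from. No SD, interval or p-value stands beside a difference for this reason, and "higher" and "lower" describe these libraries, not a tested change.

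Decitabine, the drug's other name, replaces some cytosines in newly replicated DNA. DNA methyltransferases bind it irreversibly, and dividing cells lose methylation. Promoters that are silenced by methylation, those of many germline genes among them, can become active in its presence. A bulk sample cannot tell fewer cells that express a gene from less RNA in each cell.

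Of the 12003 RefSeq entries above 0 in both groups, 1042 (8.68%) were 2-fold or more higher in recovery and 1028 (8.56%) were 2-fold or more lower. The median ratio of recovery to treated was 1.00, and at 4-fold the 2 directions held 293 entries each. Scaling each column to its upper quartile, which shifted the median log2 ratio to -0.14, gave 810 higher and 1285 lower. A further 134 entries (1.07%) were listed at 0 in the treated column and 349 (2.8%) at 0 in the recovery column. No ratio is given for these, and a 0 in such tables can also be a failed estimate.

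The columns differed in depth. The commonest ratio of the 2 values was 2.03, found in 155 of 13183 entries above 0 in both, and it was taken as 1 fragment in each group. On that reading recovery held 0.494 times the fragments behind a treated value. The treated column combines 2 libraries and recovery is 1, so this ratio does not give the depth of a single library. Single-exon olfactory receptor entries of 951 bases gave the step itself, since OR52A5 stood at 0.187 FPKM in treated cells and OR2AG2 at 0.378 FPKM in recovery. A value of 1 FPKM on such a length then rests on 5.35 treated and 2.64 recovery fragments, and a value of 100 FPKM on 535 and 264. Ratios were widest at low levels. Entries with a mean under 3 FPKM were past 2-fold in 45.7% of cases, those from 10 to 30 FPKM in 7.10%, and those from 30 to 100 FPKM in 4.01%. At 100 FPKM and above, 48 of 634 entries were higher and 11 lower.

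**Figure D1:**
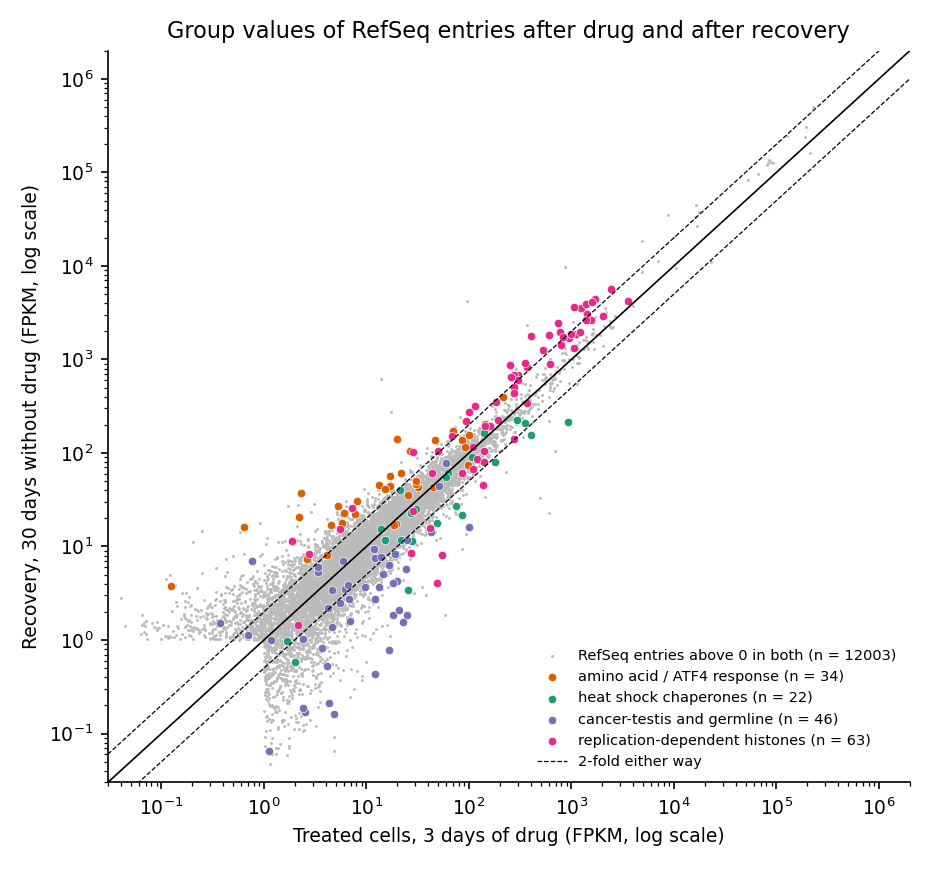
Treated FPKM (x axis, log scale) against recovery FPKM (y axis, log scale) for the 12003 RefSeq entries above 0 in both groups, with 4 gene lists coloured, the line of equal values solid and 2-fold lines dashed. The amino acid response genes and most histone genes lie above the line, the heat shock and cancer-testis genes mostly below it, and the cloud widens at low values.

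Marker lists of other cell types were looked at, which cannot by themselves establish the identity of the line. Of the listed blood genes 4 of 22 passed the floor, of endothelial genes 4 of 14, and of neuronal genes 13 of 26. Of fibroblast genes 9 of 13 passed, 3 of them 2-fold higher in recovery and 2 lower. That list summed to 135 FPKM in treated cells and 104 in recovery. Of 24 kidney and adrenal development genes 14 passed. The blood list summed to 12.3 FPKM in treated cells and 6.73 in recovery, and the endothelial list to 13.3 and 9.35. The highest endothelial gene was FLT1, a VEGF receptor, at 5.76 and 4.67 FPKM. Among neuronal genes UCHL1, a ubiquitin hydrolase, was at 476 FPKM in treated cells and 335 in recovery. The neurofilament subunit NEFM was at 4.79 and 0.0924 FPKM. The neuronal list as a whole went both ways, with 7 of the 13 larger in recovery and 6 smaller. Of these 1 was 2-fold higher and 3 were 2-fold lower, and the median difference was 0.07 on the log2(FPKM + 1) scale. Of 17 epithelial genes 8 passed the floor, and the median level over the 17 was 0.653 FPKM in treated cells and 0.426 in recovery. The keratins KRT18 and KRT17 of that list were abundant in both groups, KRT18 at 418 and 214 FPKM and KRT17 at 73.8 and 23.4.

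The genes of the amino acid response were higher in recovery as a group. ATF4 is a transcription factor whose translation increases when amino acids are short or when proteins misfold, and its targets take up and make amino acids, charge transfer RNAs and slow growth. Of 34 listed genes that passed the floor, 20 were 2-fold or more higher in recovery, none was 2-fold lower, and 30 had the larger value in recovery. Their median difference was 1.38 on the log2(FPKM + 1) scale, beside -0.01 over all entries, and the summed level was 1232 FPKM in treated cells and 2377 in recovery. Control cells had a sum of 2579 FPKM.

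The growth and stress regulators of that list stood farthest apart. CHAC1, which degrades glutathione, lies at chr15:41245636-41248717 (hg19) and was at 2.29 FPKM in treated cells, 37.2 in recovery and 33.8 in control, a 16.3-fold difference between recovery and treated. NUPR1, a stress-induced chromatin protein that is counted below with the transcription factors, was at 0.640 FPKM in treated cells and 16.2 in recovery. DDIT4, an inhibitor of mTORC1, was at 19.7 and 142 FPKM. These 3 genes were near the floor or moderate in treated cells and well above 10 FPKM in recovery. STC2, a secreted glycoprotein, was at 2.18 and 20.7 FPKM, and GDF15, a secreted stress hormone, at 5.33 and 27.0. TRIB3, a pseudokinase that restrains ATF4, was at 13.4 and 45.9 FPKM. INHBE had the widest ratio of the list, from 0.125 to 3.81 FPKM, but both values were low. GDF15 holds the MIR3189 gene, and its reads cannot be told apart from those of the small RNA here.

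The enzymes that make asparagine, serine and one-carbon units also had larger values in recovery. ASNS, which makes asparagine, lies at chr7:97481429-97501854 and was at 26.4 FPKM in treated cells, 104 in recovery and 137 in control. PHGDH, PSAT1 and PSPH catalyse the successive steps from a glycolytic intermediate to serine. PHGDH was at 46.8 and 138 FPKM, PSAT1 at 16.8 and 56.6, and PSPH at 8.04 and 30.6. The mitochondrial folate enzyme MTHFD2 was at 70.1 and 174 FPKM. Of 6 serine and one-carbon genes, 5 were past 2-fold.

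The transcription factors varied more than the enzymes. ATF4 itself was at 217 FPKM in treated cells, 401 in recovery and 492 in control, a 1.85-fold difference that did not reach the 2-fold rule. CEBPG, a partner of ATF4, was at 21.5 and 60.7 FPKM. ATF5 was at 18.7 and 16.8 FPKM, and ATF3 at 31.9 and 43.4. Thus 4 of 7 factors, NUPR1 among them, were past 2-fold and 1 had the larger value in treated cells. None of the 4 amino acid transporters above 0 in both groups was past 2-fold. SLC7A5, the light chain of the large neutral amino acid transporter, was at 44.9 and 43.5 FPKM, and its heavy chain SLC3A2 at 144 and 203.

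**Figure D2:**
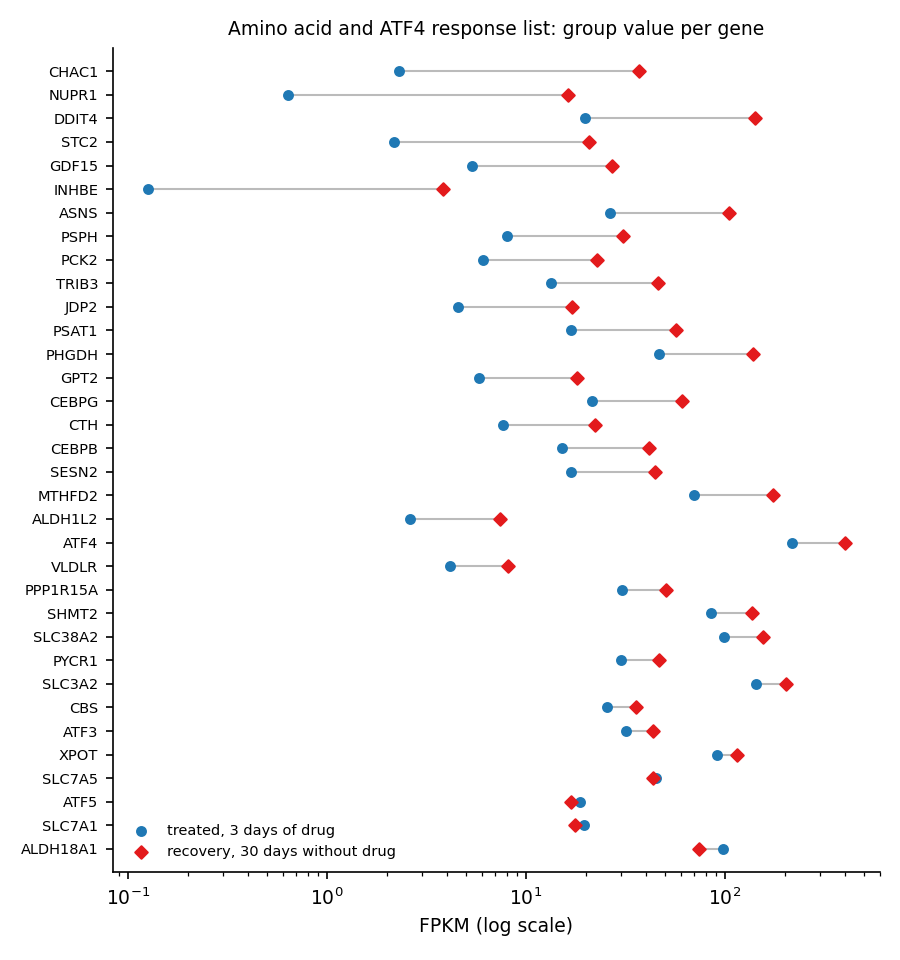
Group FPKM (x axis, log scale) of the 34 amino acid and ATF4 response genes that passed the floor, treated as circles and recovery as diamonds, ordered by the difference. In 30 genes the recovery value is the larger, and the 4 at the bottom, SLC7A5, ATF5, SLC7A1 and ALDH18A1, have the larger treated value.

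The sequences of 2 promoters of this list show the letters that were searched. The element TGATGNAA, the C/EBP-ATF composite core to which ATF4 dimers can bind, was looked for on both strands in RefSeq promoter windows of 250 bases before to 50 after each start site (GRCh38.p14). It was present in 7 of 42 windows of the listed genes that passed the floor (ASNS, ATF3, CEBPG, CHAC1, JDP2, SLC3A2 and SLC7A1) and in 3.62% of all 35116 windows. A gene can have several windows, and 27 of the 34 genes had one. The stretches below are written 5′ to 3′ on the gene's strand with the match in capitals. In the CHAC1 window the match is on the opposite strand, so its complement is printed. ASNS is shown at chr7:97872439-97872506 (minus strand), with the first base of its match 68 bases before the start site. CHAC1 is shown at chr15:40953232-40953299 (plus strand), with its match 209 bases before the start site.
ASNS: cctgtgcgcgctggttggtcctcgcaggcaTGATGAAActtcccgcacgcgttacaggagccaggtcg
CHAC1: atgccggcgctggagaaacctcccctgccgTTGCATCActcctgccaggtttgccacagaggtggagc
ASNS and CHAC1 were 3.96-fold and 16.3-fold higher in recovery, while SLC7A1, with a match too, was at 19.5 FPKM in treated cells and 17.6 in recovery. A match is a description of the letters and not a measured binding site.

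The cytosolic transfer RNA synthetases, which load amino acids onto their transfer RNAs, had the larger value in recovery in 11 of 14 genes, with a median log2 difference of 0.48. AARS1, for alanine, was at 31.3 FPKM in treated cells and 87.5 in recovery, and MARS1, for methionine, at 48.3 and 102. They were the 2 past 2-fold. VARS1, for valine, was at 18.9 and 12.8 FPKM. Of the folding and degradation genes of the endoplasmic reticulum 2 of 22 were 2-fold higher (9.09%, beside 8.68% of all entries), and the median was -0.13. XBP1, a transcription factor of the unfolded protein response, was at 67.9 and 182 FPKM, and HERPUD1, a membrane component of the degradation complex, at 17.4 and 38.8. The chaperone HSPA5 (BiP), a standard readout of that response, was at 72.8 FPKM in treated cells and 58.8 in recovery.

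Heat shock chaperones differed in the other direction. They fold or refold cytosolic proteins, and the factor HSF1 induces many of them under heat, proteotoxic or chemical stress. Of 22 listed genes, 9 were 2-fold or more lower in recovery, none was 2-fold higher, and 19 had the smaller value in recovery, with a median log2 difference of -0.60. HSPA8, the constitutive HSP70 protein, lies at chr11:122928200-122933043 (hg19) and was at 936 FPKM in treated cells, 213 in recovery and 230 in control. The inducible HSP70 genes HSPA1A and HSPA1B were at 25.3 and 86.5 FPKM in treated cells. In recovery they were at 3.44 and 21.5 FPKM, which is 7.35-fold and 4.02-fold lower. These near-identical genes share reads, so the division between them is uncertain.

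Their partners were lower as well. DNAJB1, an HSP40 cochaperone, was at 75 FPKM in treated cells and 27.0 in recovery. HSP90AA1, the inducible HSP90, was at 408 and 154 FPKM, while its constitutive paralogue HSP90AB1 was at 296 and 226. HSPH1, an exchange factor of HSP70, was at 27.9 and 11.5 FPKM. The mitochondrial HSP70 HSPA9 was at 140 FPKM in treated cells and 165 in recovery, and HSF2 at 21.2 and 39.8, the largest value in the higher direction. HSF1 itself was at 14.0 and 15.6 FPKM. The entries of 3 of the 22 genes hold a small RNA gene: HSPA8, HSPA9 and DNAJB1.

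Promoter windows of 2 of these genes are printed because they hold the paired inverted sites of the heat shock element, to which HSF1 binds. GAANNTTC was present in 12 of 31 windows of the listed genes that passed, for 11 genes, and in 6.77% of all windows. The other orientation, TTCNNGAA, was present in 10 of 31 windows and in 7.74% of all. The 2 letter strings can overlap in 1 element. HSPA1A is shown at chr6:31815407-31815474 (plus strand) and HSPA8 at chr11:123062149-123062386 (minus strand), both GRCh38.p14, with GAANNTTC in capitals. The match nearest the start site begins 106 bases before it in HSPA1A and 50 bases before it in HSPA8.
HSPA1A: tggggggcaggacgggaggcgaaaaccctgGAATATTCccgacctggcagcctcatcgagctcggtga
HSPA8: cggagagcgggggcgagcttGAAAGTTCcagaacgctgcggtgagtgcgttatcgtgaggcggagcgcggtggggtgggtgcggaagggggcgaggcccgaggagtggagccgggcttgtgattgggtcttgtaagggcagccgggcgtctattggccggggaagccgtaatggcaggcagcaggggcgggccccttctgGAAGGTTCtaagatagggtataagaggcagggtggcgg
The windows with a match included those of HSPB1 and DNAJB6, which were within 2-fold: HSPB1 was at 59.2 FPKM in treated cells and 55.4 in recovery, and DNAJB6 at 30.8 and 25.1.

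Among immediate early genes, which respond to signals within minutes, 5 of 27 were 2-fold lower in recovery and 1 was higher. FOSL1, a subunit of AP-1, was at 9.84 FPKM in treated cells and 0.580 in recovery. DUSP5, a phosphatase of ERK, was at 4.88 and 0.732 FPKM, and SGK1, a kinase, at 20.5 and 5.92. FOS and JUN stayed within 2-fold, with FOS at 2.94 and 2.18 FPKM and JUN at 30.2 and 44.1.

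Cancer-testis and germline genes were the list with the most members lower in recovery. Such genes are normally silent outside the germ line, are kept so by promoter methylation, and are active again in some tumours and after demethylating drugs. Of 82 genes in the table, 58 passed the floor and 46 were above 0 in both groups. Of these 46, 30 were 2-fold lower in recovery and 2 were higher; another 11 were listed at 0 in recovery and 1 at 0 in treated. The median log2 difference over the 58 was -1.35.

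Single genes show how far apart the columns were. TKTL1, a transketolase-like enzyme, was the most abundant of the list at 100 FPKM in treated cells, 16.3 in recovery and 2.42 in control. SPANXC, a sperm nuclear protein at chrX:140335596-140336646, was at 28.3 FPKM in treated cells and listed at 0 in recovery and in control. SSX1 was at 22.6 FPKM in treated cells, 1.55 in recovery and 0.169 in control. All 3 were higher in treated cells than in either other group, and TKTL1 and SSX1 stood above control in recovery. DAZL, a germ cell RNA-binding protein, was at 16.6 and 0.783 FPKM, and RHOXF1, a homeobox factor of the germ line, at 12.3 FPKM in treated cells and listed at 0 in recovery. MAGEA1 was at 20.6 and 2.07 FPKM.

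The counts varied between gene families. All 4 MAGEB and MAGEC genes above 0 in both groups were 2-fold lower, as were 3 of 3 SSX genes and 4 of 5 PAGE and XAGE genes. Of 7 MAGEA genes only 2 were 2-fold lower and 1, MAGEA6, was higher, at 0.374 FPKM in treated cells and 1.52 in recovery. MAGEA3 was at 3.40 and 5.96 FPKM, and MAGEA3 and MAGEA6 share most of their sequence. CTAG2, which encodes the antigen LAGE-1, was at 51.1 FPKM in treated cells, 44.6 in recovery and 0.658 in control. PRAME, a repressor of retinoic acid signalling, was at 59.3 FPKM in treated cells, 78.8 in recovery and 19.2 in control. GAGE12J was at 0.772 and 7.03 FPKM, the largest difference in the higher direction, and it belongs to a family of near-identical copies. Of the listed genes above 0 in both groups, 20 of 31 on the X chromosome and 10 of 15 elsewhere were 2-fold lower. X-linked entries made up 5.35% of all lower entries and 3.84% of all entries above 0 in both groups. Without the listed genes, which are 20 of the 55 lower X-linked entries, the shares were 3.51% and 3.60%. Entries listed at 0 in recovery are not among these: 25 of 349 (7.16%) were X-linked, beside 3.92% of all that passed. Without the listed genes it was 19 of 338 (5.62%), beside 3.63%. Of the entries listed at 0 in treated cells, 2 of 133 were X-linked without the listed genes. These X-linked counts are small, and the differences were not tested.

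**Figure D3:**
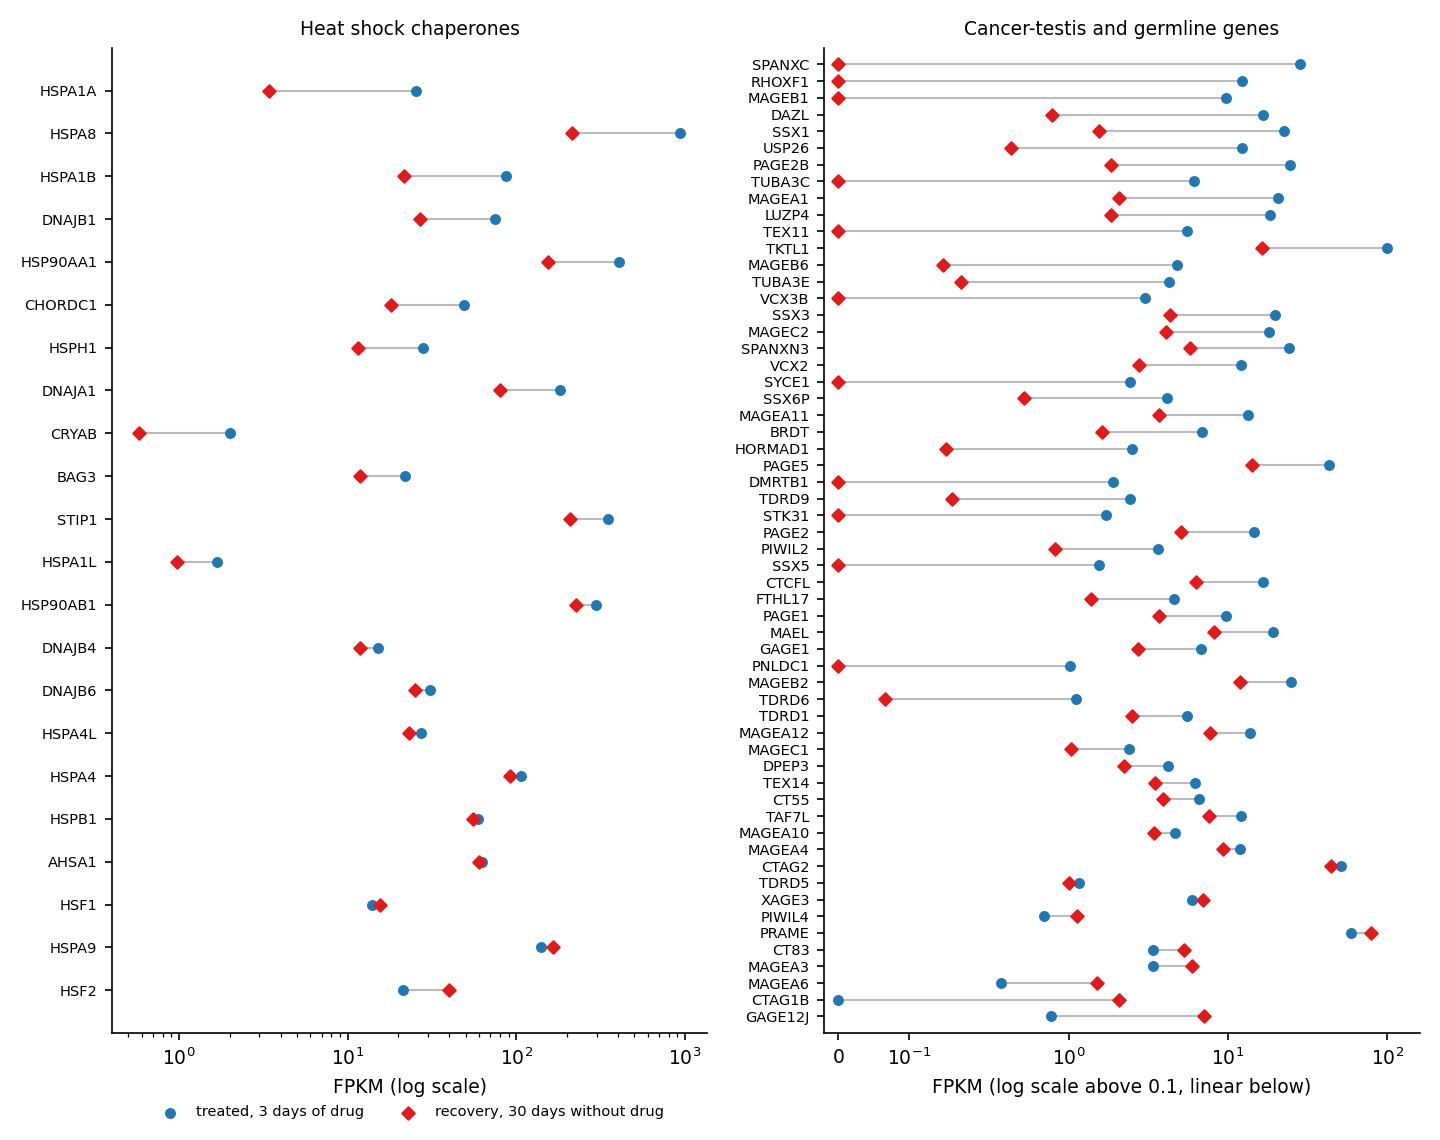
Group FPKM (x axes, log scale; linear below 0.1 on the right) of 22 heat shock chaperones and 58 cancer-testis and germline genes that passed the floor, treated as circles and recovery as diamonds. Recovery lies to the left in 19 of 22 chaperones, and 11 germline genes are listed at 0 in recovery.

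Replication-dependent histone genes were higher in recovery. They encode the histones that package newly made DNA, and their messages end in a stem-loop in place of a poly(A) tail, so the share captured depends on the random primers used here. Of 63 genes above 0 in both groups, 30 were 2-fold higher, 5 were 2-fold lower and 49 had the larger value in recovery. The list's median log2 difference was 0.93, and 0.60 under quantile normalization, which gives the 2 columns the same distribution of values. Among the 51 that reached 100 FPKM, 26 were higher and 1 was lower, and their sums were 35190 FPKM in treated cells, 72226 in recovery and 56516 in control. The 12 below 100 FPKM went both ways, with 4 higher and 4 lower.

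Abundant members with larger values in recovery came from each of the 5 families. H2AC6 was at 401 FPKM in treated cells, 1784 in recovery and 1301 in control. H3C10 was at 1068 and 3660 FPKM, H1-4 at 1248 and 3554, and H2BC5 at 1388 and 3921. H4C5 was at 599 FPKM in treated cells and 1810.5 in recovery. The linker histones differed least as a family, with a median of 0.17 and 1 of 6 genes past 2-fold, against medians from 0.97 to 1.06 in the H2A, H2B, H3 and H4 families. Most of the lower members were rarer transcripts: H3-4, a histone H3 of testis, was at 48.5 FPKM in treated cells, 4.05 in recovery and 0.661 in control, and H2BC14 was at 54.9, 8.11 and 4.53 FPKM. Histone genes share long identical stretches, so reads may be divided unevenly between copies.

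The other cell cycle lists had medians near or below 0. Of 37 S phase genes 1 was past 2-fold, GINS3 at 13.7 and 28.8 FPKM, and the list's median was -0.03. SLBP, which binds the histone stem-loop, was at 98.0 FPKM in treated cells and 83.8 in recovery. Of 37 mitotic genes none was 2-fold higher and 2 were 2-fold lower (5.41%, beside 8.56% of all entries). The list's median was -0.33, and 28 genes had the smaller value in recovery. MKI67, the proliferation antigen, was at 75.2 FPKM in treated cells, 22.2 in recovery and 32.8 in control, and CENPE, a kinetochore motor, at 28.7, 13.7 and 29.2. CDK1 was at 115 and 123 FPKM and CCNB1 at 129 and 109.

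**Figure D4:**
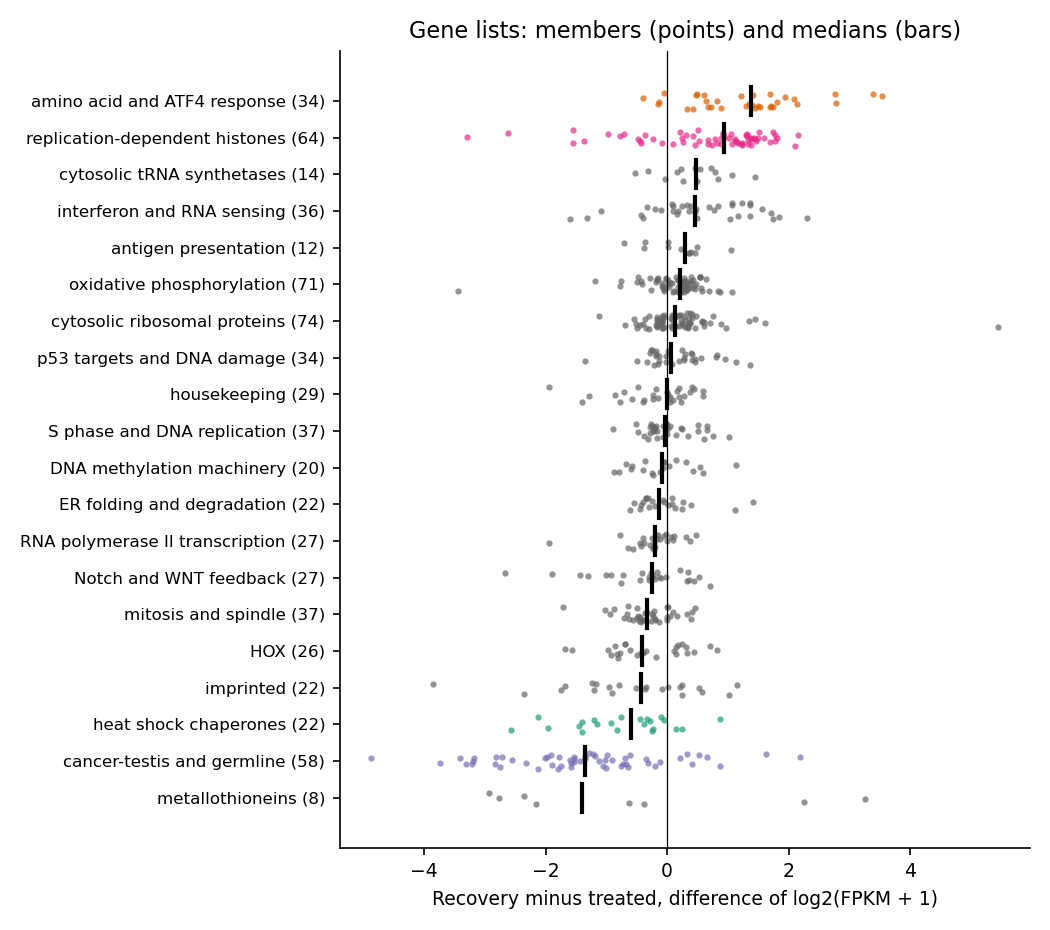
Difference of log2(FPKM + 1), recovery minus treated (x axis), for the members of 20 gene lists that passed the floor (points, number in brackets) with each list's median (bar). Medians run from 1.38 for the amino acid response to -1.40 for the metallothioneins, and the S phase, p53 and housekeeping lists lie near 0.

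Interferon-stimulated genes leaned to higher values in recovery. These genes answer interferon or sensed nucleic acids and limit viruses. Of 35 above 0 in both groups, 15 (42.9%) were 2-fold higher and 2 (5.71%) were 2-fold lower, beside 8.68% and 8.56% of all entries. The larger value was in recovery in 28, with a median log2 difference of 0.47. At a floor of 5 FPKM that median was 0.24. Wide ratios were common at low levels: of all 2232 entries with a mean under 3 FPKM, 492 were 2-fold higher and 527 were lower. Most genes of this list were scarce, so that few fragments stand behind the ratios. Of those above 10 FPKM, BST2 (tetherin), which holds budding virions at the cell surface, was at 17.8 FPKM in treated cells, 61.7 in recovery and 15.2 in control, and IFI6 at 12.6, 43.6 and 16.9. Recovery was thus the highest of the 3 groups for both. IFI35 was at 4.27, 14.6 and 15 FPKM, so there the treated cells were low. Of the scarce members, IFIT1 was at 1.51 and 7.95 FPKM and the DNA sensor IFI16 at 0.111 and 4.48. IFITM2 and IRF7 differed the other way, at 64.1 and 20.7 FPKM in treated cells and 20.4 and 7.69 in recovery. IFITM2 has close paralogues next to it: IFITM3 was at 64.2 and 90.5 FPKM and IFITM1 at 58.9 and 69.8.

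Antigen presentation genes were mostly within 2-fold, with 1 of 12 higher (8.33%, beside 8.68% of all entries). That gene was ERAP2, a peptidase, at 4.58 and 10.6 FPKM, and B2M was at 325 and 383 FPKM. The DNA methylation machinery, the drug's target, had 1 of 20 genes 2-fold higher (5%, beside 8.68% of all entries) and none 2-fold lower. DNMT1, the maintenance methyltransferase, was at 53.5 FPKM in treated cells and 51.4 in recovery, and its cofactor UHRF1 at 29.9 and 25.4. DNMT3B, a de novo methyltransferase, was at 25.8 and 13.7 FPKM, and GADD45A, counted in this list and among p53 targets, at 23.6 and 53. Of 34 p53 target and damage genes, 2 were 2-fold higher (5.88%) and 1 was lower (2.94%), with a median of 0.06. Both shares were below those of all entries, 8.68% and 8.56%. CDKN1A, the p21 inhibitor of the cell cycle, was at 61.7 and 90.8 FPKM and MDM2, a ubiquitin ligase of p53, at 140 and 128. Of 16 genes that take up, export or process decitabine 1 was 2-fold lower (6.25%, beside 8.56% of all entries). That gene was the exporter ABCG2, at 1.31 and 0.0696 FPKM. DCK, which adds the first phosphate to the drug, was at 15.3 FPKM in treated cells and 24.0 in recovery.

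Imprinted genes, expressed from 1 parental copy under the control of methylation, included some of the widest differences. Of 22 above 0 in both groups 10 were 2-fold lower and 2 were higher. The noncoding RNA H19, at chr11:2016406-2019065, was at 490 FPKM in treated cells, 33.0 in recovery and 9.49 in control, and its gene holds MIR675. PHLDA2, from the same imprinted region, was at 14.2 FPKM in treated cells and 3.55 in recovery and listed at 0 in control. MEG3, a noncoding RNA of another imprinted region, was at 3.64 and 0.444 FPKM. CDKN1C, which lies near PHLDA2, was at 12.8 FPKM in treated cells and 15.3 in recovery, and GRB10, an adaptor that damps insulin signalling, at 13.1 and 27.6. Of the 22 genes 14 had the smaller value in recovery and 8 the larger.

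Of 25 HOX genes above 0 in both groups 6 were 2-fold lower and none was higher, among them HOXC6 at 12.8 and 3.64 FPKM. HOXB7 was at 11.2 FPKM in treated cells and 20.5 in recovery. Metallothioneins, small proteins that bind zinc and copper, split by gene. MT1E was at 34.9 FPKM in treated cells and 3.72 in recovery, and MT1G at 15.8 and 1.45. MT1A was at 23 and 4.36 FPKM. These 3 were at or under 1 FPKM in control, with MT1E and MT1A listed at 0. MT1F, in the same cluster on chromosome 16, was the reverse, at 0.584 FPKM in treated cells, 14.2 in recovery and 16.2 in control. The abundant MT1X and MT2A were within 2-fold, at 215 and 138 FPKM and at 89.9 and 69.0. The metal response core TGCNCNC was in 55.9% of all promoter windows, too many for a match to single out these genes.

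Signalling genes differed one by one. In the Notch and WNT list 6 of 26 were 2-fold lower and none was higher. NOTCH1 was at 14.0 FPKM in treated cells, 4.53 in recovery and 3.52 in control, its target HES5 at 10.4 and 2.05, and NRARP, a feedback inhibitor of Notch, at 88.6 and 35.5. HES1, another target, was at 58.9 FPKM in treated cells and 84.9 in recovery. DKK1, a secreted WNT antagonist, was at 14.3 and 1.42 FPKM. Among apoptosis genes BIK, a BH3-only activator, was at 9.13 FPKM in treated cells and 0.377 in recovery, and BCL2L11 (BIM), another, at 13.7 and 4.19. PMAIP1 (NOXA), also of that class, was at 73.3 and 191 FPKM, and the survival factor BCL2 at 1.53 and 6.49. BH3-only genes thus appeared in both directions. IRS4, an adaptor of the insulin and IGF receptors on the X chromosome, was at 2.13 FPKM in treated cells, 28 in recovery and listed at 0 in control.

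The cytoskeletal list had 4 genes higher and 3 lower of 37. These shares, 10.8% and 8.11%, were near those of all entries, 8.68% and 8.56%. CAVIN1, which shapes caveolae, was at 84.6 FPKM in treated cells and 28.8 in recovery, while CAVIN3, its partner, was at 9.05 and 27.2. The actin-sequestering peptide TMSB4X was at 609 and 217 FPKM, and its paralogue TMSB10 at 1437 and 1504. ACTB, often used as a reference, was at 951 FPKM in treated cells and 555 in recovery. Of 29 housekeeping genes 3 were 2-fold lower (10.3%, near the 8.56% of all entries), and the list's median log2 difference was 0.003. Among the 3 were POLR2A, the large subunit of RNA polymerase II, at 47.7 and 11.6 FPKM, and HPRT1, a purine salvage enzyme, at 38.1 and 13.8. GAPDH was at 1501 and 1553 FPKM and PGK1 at 193 in both. The other RNA polymerase II genes were within 2-fold, as were nearly all ribosomal protein genes (4 of 74 higher and 1 lower) and oxidative phosphorylation genes (1 higher and 1 lower of 70).

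The entries with the largest ratios, among those where the larger value was 10 FPKM or more, were of several kinds. They included germline genes, the amino acid response genes NUPR1, CHAC1 and STC2, entries with a complication, and others that were none of these. TMEM42, a membrane protein gene at chr3:44903380-44907154, had the largest ratio in the lower direction: 59.0 FPKM in treated cells, 1.84 in recovery and 3.13 in control. USP26, a testis deubiquitinase, was at 12.2 and 0.438 FPKM. UNC119B, which carries lipid-modified proteins, was at 603 FPKM in treated cells, 23 in recovery and 26.8 in control, and its entry holds MIR4700. The 15 lowest ratios ran from 32.0-fold to 9.96-fold lower, and also hold DAZL, SSX1, PAGE2B, MAGEA1, H3-4, DKK1, H19 and MT1G. ACTBL2, an actin-like gene, was at 17.2 and 1.09 FPKM and PNMA5, a gene derived from a retroelement, at 37.9 and 3.02.

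In the higher direction the ratios ran from 9.50-fold to 58.7-fold. CAHM, a noncoding RNA known for hypermethylation in colon tumours, was at 0.204 FPKM in treated cells, 11.2 in recovery and 8.92 in control. NHERF1, a scaffold protein under the membrane, was at 17.2 FPKM in treated cells, 272 in recovery and 8.98 in control, so recovery stood apart from both other groups. DMC1, the meiotic recombinase, was at 1.71, 26.9 and 0.0984 FPKM. HSD17B8, a mitochondrial steroid dehydrogenase, was at 1.06 and 10.7 FPKM. Several entries of this kind are harder to read. RPS3A, a ribosomal protein gene that holds SNORD73A and SNORD73B, was at 96.4 FPKM in treated cells, 4261 in recovery and 1535 in control. TICAM2-AS1, MYL5, LINC00863 and SNORD49B had entries over 1.5 times as long as the named gene, so other transcripts may be counted in them. The entry NM_001282529, which had no symbol in the name table, was at 13.9 and 617 FPKM.

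Small RNA genes inside longer genes were looked at for this reason. At 100 FPKM or more, 7 of 116 host entries were higher and 7 lower, against 53 and 9 of 606 entries that hold none. Replication-dependent histone genes, none of which holds a small RNA gene, were 26 of those 53 higher entries and 1 of the 9 lower. The part of embedded small RNAs in the values of the hosts was not tested.

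Entries listed at 0 in one group were mostly scarce in the other. At 10 FPKM or more, 13 were listed at 0 in treated cells and 14 in recovery, counting short ones. SPANXC, RHOXF1 and MAGEB1 were among the 8 highest long entries listed at 0 in recovery, with MAGEB1 at 9.67 FPKM in treated cells. COX7B2, a testis isoform of a cytochrome oxidase subunit, was at 9.83 FPKM in treated cells. Of those listed at 0 in treated cells C1orf54 was at 12.2 FPKM in recovery and PSPN, a neurotrophic factor, at 7.36. LINC01730 was at 8.99 FPKM in recovery and 3.67 in control. Protein-coding genes were 69.1% of the entries at 0 in recovery and 59.7% of those at 0 in treated cells, beside 92.2% of all that passed.

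Entries under 200 bases reach high FPKM from few fragments and were read apart. Of 25 SNORD116 genes, a tandem cluster of C/D box RNAs on chromosome 15, 4 were above 0 in recovery and none in treated cells. Their values of 232, 348, 579 and 811 FPKM are 2, 3, 5 and 7 times a step of 115.9 FPKM, which is read here as 1 fragment. The vault RNA VTRNA1-2 was at 229483 FPKM in treated cells and 503650 in recovery, VTRNA1-3 at 8794 and 34908, and VTRNA1-1 at 82845 and 127077. VTRNA2-1 was higher in recovery too, but within 2-fold. Of 16 small nucleolar RNAs above 0 in both groups 6 were 2-fold higher and none was lower. SNORD60 was at 89417 and 130770 FPKM and SNORA18 at 213976 and 163267. Quantile normalization, which matches the highest values of the columns, brought the median of this list from 1.02 to 0.22.

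MicroRNA genes appeared at 0 in one group or the other, which the sequences help to place. MIR138-1 on chromosome 3 and MIR138-2 on chromosome 16 were at 97.8 and 334 FPKM in recovery and listed at 0 in treated cells and control. MIRLET7A1 and MIRLET7F1 were at 96.6 and 221 FPKM in treated cells and listed at 0 in recovery. The MIRLET7D entry was at 596 FPKM in recovery and listed at 0 in treated cells. It is 27997 bases wide for a gene of 87 bases, so other transcripts may be counted in it. It begins after the ends of the MIRLET7A1 and MIRLET7F1 entries and covers neither. The mature sequences (RefSeq, GRCh38.p14) are given with the seed, bases 2 to 8, in capitals.
miR-138-5p: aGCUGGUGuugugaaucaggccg
let-7a-5p: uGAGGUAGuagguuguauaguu
let-7f-5p: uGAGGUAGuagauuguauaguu
let-7d-5p: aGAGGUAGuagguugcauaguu
Both MIR138 genes give the same mature miR-138-5p, and the 3 let-7 RNAs share the seed. The libraries were made from fragments of about 300 bases, so these values count pieces of precursor or host transcripts and not mature microRNAs.

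Whole chromosomes differed slightly in the ratio of the columns. Over the 6854 entries above 0 in both groups with a larger value of 10 FPKM or more, the median log2 ratio was 0.01. On chromosome 4 it was -0.22 over 235 entries, and 153 of them were lower in recovery. The difference was spread along the chromosome, with 18 of 20 bins of 10 Mb below 0. On chromosome 7 the median was 0.15 over 302 entries, with 15 of 16 bins above 0. On chromosome 6 it was 0.16 over 407 entries, which includes the histone cluster, and 0.10 without 52 histone genes. The bin from 20 to 30 Mb, where the cluster lies, had a median of 0.51 with the histone genes and -0.04 without. Chromosome X was at -0.13, chromosome 18 at 0.13 and chromosome 19 at 0.12. These values are small beside the spread of single genes. Upper quartile scaling, which lowers every log2 ratio alike, would bring the medians of chromosomes 6, 7, 18 and 19 to about 0 or below, while the order of the chromosomes would stay.

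**Figure D5:**
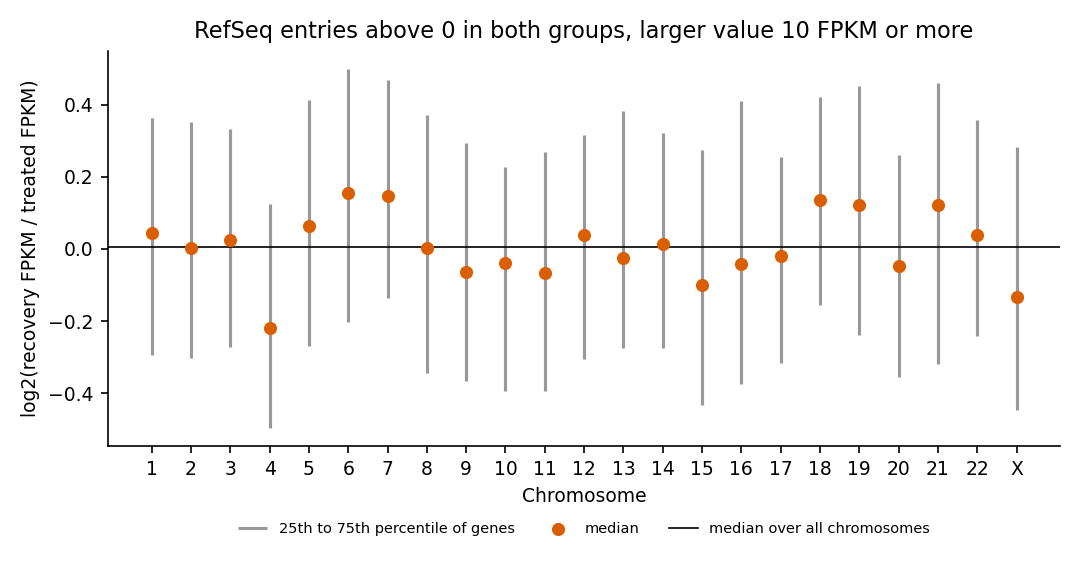
Median log2 ratio of recovery to treated FPKM (points) with the 25th to 75th percentile of genes (lines) for each chromosome (x axis), over RefSeq entries above 0 in both groups with the larger value 10 FPKM or more. Chromosome 4 has the lowest median at -0.22, and chromosomes 6 and 7 the highest at 0.16 and 0.15.

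The lncRNA table was scaled on its own, and its ratios were wider. Loci that stand in both tables show its scale: LINC01647 was at 21.0 and 39.2 FPKM in the lncRNA table and at 0.905 and 1.83 FPKM in the RefSeq table. At the 3 loci with the commonest ratio in both, the lncRNA values were 23.3 times the RefSeq ones in treated cells and 21.4 times in recovery. On a length of 951 bases 1 fragment is then worth 4.35 FPKM in treated cells and 8.08 in recovery, both above the floor of 1 FPKM. The lengths of the lncRNA transcripts were not used here, so the value of 1 fragment at each locus is not known. The commonest ratio was 1.86, in 44 of 1327 loci above 0 in both.

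Of 1322 lncRNA loci above 0 in both groups with the larger value 1 FPKM or more, 399 (30.2%) were 2-fold higher in recovery and 304 (23%) were 2-fold lower. Of the 2845 that passed, 423 (14.9%) were listed at 0 in treated cells and 1100 (38.7%) at 0 in recovery, the shallower column. The median log2 ratio was 0.16. Scaling moved these counts: with the upper quartile set equal 252 were higher and 497 lower, with the median ratio at 1 it was 371 and 346, and with quantile normalization 546 and 226. Which direction held more loci thus depended on the scaling. Loci at 100 FPKM or more were past 2-fold about as often (46.7%) as those from 3 to 10 FPKM (54.2%). These levels cannot be set against the same levels of RefSeq entries, because the 2 tables differ in scale.

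The widest lncRNA ratios had a value near 0 in one column. TCONS_l2_00018852 on chromosome 3 was at 17.7 FPKM in treated cells and 0.000422 in recovery, and TCONS_l2_00012910 on chromosome 19, which overlaps LINC00663, at 0.000381 and 30.8. Values that small lie far under that of 1 fragment, so the ratios are not interpretable as sizes. Among loci with both values at 1 FPKM or more, TCONS_l2_00030633 at chrX:152661098-152666834 (hg19) was at 174 FPKM in treated cells, 1.89 in recovery and 2.47 in control. TCONS_00002986 on chromosome 2 was at 275 FPKM in treated cells, 3.91 in recovery and 71.3 in control. In the other direction TCONS_00011149, which overlaps GMDS-DT on chromosome 6, was at 1.22 FPKM in treated cells, 227 in recovery and 284 in control. TCONS_00001092 at chr1:110624852-110652861 was at 9.59 FPKM in treated cells and 792 in recovery and listed at 0 in control.

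Of the loci listed at 0 in recovery, TCONS_00025350 on chromosome 17 was the highest described here, at 1644 FPKM in treated cells and 3.64 in control. Of those listed at 0 in treated cells, TCONS_00029516 on chromosome 22 was at 1150 FPKM in recovery and 510 in control. TCONS_00027857 matches LINC01730 and was at 723 FPKM in recovery, where the RefSeq table gave 8.99. Both tables listed it at 0 in treated cells. Of 32 loci above 0 in both groups in both tables, 29 had the same direction in each. The tables come from the same libraries, so this is no independent check. GATA3-AS1 and TSIX were each paired with more than 1 of these loci. A locus paired with TSIX was at 26602 FPKM in treated cells where the RefSeq table gave 2.04, so the pair may not be the same transcript. H19 was at 4830 and 1372 FPKM in the lncRNA table, 3.52-fold lower in recovery, where the RefSeq table gave 14.8-fold lower: the direction was the same and the size was not.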

How the data were processed

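RNA sequencing libraries of HEK 293T cells were grouped by their titles (2 control, 2 treated, 1 recovery). The authors deposited FPKM values, 1 per entry and group, per the file headers. Per the submitters' processing notes, Cufflinks and Cuffdiff were used and the builds hg19 and mm9 appear. No aligner or annotation is given in the sources used here; since the tables are human, hg19 was assumed for positions, which are printed 1-based. In 1 of 20221 RefSeq and 2 of 21627 lncRNA lines cells were shifted, and these were left out. Of 20220 RefSeq identifiers 19661 were matched to symbols (NCBI RefSeq, GRCh38.p14, names and neighbours only). The number of value columns not matched to a group was 0. The 21625 lncRNA transcripts gave 10010 loci with distinct position and values.

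Ratios of recovery to treated FPKM were computed with Python 3.11.15, pandas 2.3.3 and numpy 2.4.6. Entries above 0 in both groups, with the larger value at least 1 FPKM, were counted at 2-fold. Lists are described by the median of log2(FPKM + 1) differences, which makes differences of low genes look smaller than they are. The planned design has no test, since recovery is 1 library and the tables hold group values, and total fragments per library are not given. The counting functions were tested on simulated data. Named entries are the 15 largest ratios each way with the larger value at least 10 FPKM, the 8 highest listed at 0 in one group, for lncRNA loci 6 and 4, and in each list the 3 largest differences each way with its defining members, of which the text gives a part. Some entries that the rule selects are not reported here. The members and the 42 lists were chosen with earlier results of these data known.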

Additional observations from a re-analysis of the deposited data

How the results depend on the processing

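No paired analysis was possible because each group has 1 deposited value per entry. For the same reason leaving out each treated library could not be run. Among RefSeq entries, 4-fold gave 293 higher and 293 lower, a floor of 5 FPKM 518 and 461, of 10 FPKM 328 and 266, and the ratio of FPKM + 1 gave 626 and 572. RefSeq entries at 0 in treated cells and in recovery numbered 240 and 674 at a floor of 0.5 FPKM, 23 and 29 at 5, and 13 and 14 at 10. Among lncRNA loci 4-fold gave 193 higher and 137 lower, and upper quartile scaling 252 and 497. The germline median was -2.02 with a pseudocount of 0.1, from -1.35. The S100 median was 0.054 at a floor of 5 FPKM, from -0.27. In all, 46 of the recomputed counts stayed within 1.5 times, 18 did not, and of the medians of 40 lists 191 values moved by less than 1.5-fold and 3 by more. Of the 195 values 5 had the other sign: that of the S100 list, and 4 of lists whose reported median was within 0.2 of 0 (ribosomal proteins, polymerase III RNAs and housekeeping genes under quantile normalization, cholesterol at a floor of 5 FPKM). The 30 entries named by ratio kept their direction under 3 scalings, and 3 of their 90 values moved by over 1.5-fold. They were picked for the largest ratios, so a kept direction was to be foreseen and is no support for them. Leaving out entries that hold a small RNA gene, entries over 1.5 times the gene's length, and lncRNA loci under 25 FPKM or with a value under 1 FPKM were alternatives chosen after seeing the data. The cause of these shifts was not tested, beyond fewer entries being counted at higher floors and folds. Depth limits the scarce entries: 3 recovery fragments on 951 bases are 1.14 FPKM in the RefSeq table and 24.3 FPKM in the lncRNA table.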

Other observations

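In the glycolysis and hypoxia list 3 of 28 genes were 2-fold higher in recovery and 2 were lower, with a median log2 difference of -0.02. These shares, 10.7% and 7.14%, were near those of all entries, 8.68% and 8.56%. VEGFA, which drives the growth of blood vessels, was at 13.1 FPKM in treated cells, 40.4 in recovery and 29.5 in control. The glucose transporter SLC2A3 was at 67.3 and 35.7 FPKM and LDHA, lactate dehydrogenase, at 415 and 249. The glycolytic enzyme PGAM1 was at 63.4 and 64.8 FPKM. In the axon guidance list 5 of 25 genes above 0 in both groups were higher and 1 was lower. NRP1, a receptor of semaphorins and of VEGFA, was at 9.47 FPKM in treated cells and 23.7 in recovery, and the guidance ligand SLIT2 at 15.6 and 8.57.

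Cholesterol genes had a median of -0.03, with HMGCS1, an early enzyme of the pathway, at 36.0 and 19.7 FPKM and CYP51A1, a later one, at 24.7 and 38. Of 424 zinc finger genes above 0 in both groups 31 (7.31%) were higher and 22 (5.19%) were lower, shares below those of all entries. Of 25 autophagy and lysosome genes 1 was past 2-fold, MAP1LC3A at 16.8 and 5.43 FPKM, while its paralogue MAP1LC3B was at 18.2 and 13.3. Of 9 pluripotency genes 4 were 2-fold lower and 1 was higher, with a median of -0.38. ZFP42 and DPPA2 were at 5.21 and 3.91 FPKM in treated cells and 1.86 and 1.20 in recovery. DPPA3 was at 0.335 and 2.38 FPKM. The RNA of telomerase, TERC, was at 281 FPKM in treated cells, 706 in recovery and 341 in control. Fibronectin, FN1, was at 59.4, 21.0 and 37.6 FPKM. It belongs to the fibroblast list, in which 3 genes were 2-fold higher in recovery and 2 lower. The authors' deposited mark headed SOM DNA methylation, an abbreviation left unexplained in the labels, stood on 10.7% of entries above 0 in both groups, on 13.8% of those higher, 16.4% of those lower, 20.9% of those at 0 in treated cells and 24.9% of those at 0 in recovery. The entries at 0 are also the scarce ones, and the part of level in this order was not tested.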
